A study of Mus musculus with 15 samples.

Results

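The epidermal growth factor (EGF) family ligands and their ErbB receptors were followed as 10 genes across 3 cell populations of a mouse melanoma. The members were taken by gene name from the deposited table of 53465 genes, and were the 4 receptors Egfr, Erbb2, Erbb3 and Erbb4 and the 6 ligands Ereg, Areg, Nrg1, Hbegf, Tgfa and Btc. Each name matched 1 gene, and all 10 passed the minimum mean of 5 normalized counts that left 25549 genes for testing. Egfr, Ereg and neuregulin had been singled out by the study from these same libraries, so their difference between EVP and D is not independent evidence here.

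The libraries came from B16-F0 tumors, a mouse melanoma line, grown in mice whose own cells carried green fluorescent protein (GFP) under the ubiquitous CAG promoter, and the tumors were collected on day 15. Host cells that were GFP+, lineage negative and CD34+ were sorted by 2 surface proteins into EVP (CD31lo VEGFR2lo, endovascular progenitor), TA (CD31int VEGFR2lo, transit amplifying) and D (CD31hi VEGFR2hi, definitive differentiated), with 5 libraries of each and no treatment in any of them. The mice of the study were of both sexes and 8 to 14 weeks old, all 3 populations shared the tumor line, the host transgene and the collection day, and neither the labels nor the methods tell whether same-numbered libraries came from the same animal or how many animals went into a library. The p-values therefore measure the spread between these libraries. Because the gates were set on proteins and not on RNA, and the values are of bulk RNA, fewer cells of a type and less RNA per cell cannot be told apart.

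ErbB receptors are membrane tyrosine kinases that pair up when a ligand binds outside the cell. EGFR binds epiregulin, amphiregulin, betacellulin, HB-EGF and TGF-alpha, ERBB3 and ERBB4 bind neuregulins, and ERBB4 also binds betacellulin, HB-EGF and epiregulin. ERBB2 has no ligand of its own and serves as the preferred partner of the others, whereas ERBB3 has little kinase activity and signals through its partners. The ligands are made as membrane proteins and are freed by cleavage, so that a ligand from one cell can act on a neighbour. Downstream, the RAS-ERK cascade turns on genes that feed back on the pathway. In tumor stroma these ligands are best known as paracrine signals between epithelial, mesenchymal, immune and endothelial cells.

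The labelled cell types were checked against marker genes. Summed over 10 pan-endothelial markers, the normalized counts were 103119 to 163172 in the D libraries, 5979 to 72865 in TA and 2385 to 4279 in EVP, and none of these markers was at 0 throughout a population. Summed over 8 fibroblast markers, they were 979 to 4065 in D, 190986 to 606223 in TA and 840558 to 1494780 in EVP. The EVP libraries thus carried little endothelial marker RNA apart from Tek, and much fibroblast marker RNA. Mean normalized counts of Tek were 1578 in EVP, 583 in TA and 2379 in D. Here EVP is the name of a sort gate. Keratinocyte markers summed to 1147 to 7581 in EVP, 2194 to 76883 in TA and 107 to 2221 in D. Melanoma markers summed to 29776 to 67410 in EVP, 69334 to 176152 in TA and 18213 to 47920 in D, although the GFP gate should keep tumor cells out. Macrophage markers summed to 2017 to 11809 in EVP, 7710 to 40845 in TA and 3616 to 11497 in D, and mast cell markers to 226 to 15486 in EVP, 4564 to 97072 in TA and 2105 to 3580.0 in D, where the sum is almost all Kit.

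The libraries held between 5394356 and 26513073 reads on genes (median 19049194). EVP replicate 1 was the shallowest and stood apart, because its 1406 olfactory receptor genes, which should be silent in these cells, held 42.6 normalized counts per kilobase of exon. TA replicate 1 held 9.64, D replicate 1 held 6.85 and TA replicate 3 held 3.74, against at most 1.43 in the others. This background was used as a yardstick for low members, and member results that rest on EVP replicate 1 are given with and without it.

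Between EVP and D, 6 of the 10 members passed the test. Egfr, Ereg, Areg, Nrg1 and Btc were higher in EVP, and Hbegf was higher in D. Of all tested genes 19.0% passed in this comparison, 11.6% as higher in EVP and 7.46% as higher in D. The 5 libraries of EVP and the 5 of D did not overlap for 5 members (Egfr, Ereg, Areg, Btc and Hbegf), where 17.7% of all genes did not overlap. Between EVP and TA no member passed in limma, edgeR or DESeq2, 2 members (Ereg and Hbegf) had an unadjusted limma p under 0.05, and 3.50% of all genes passed. Between TA and D, 4 members passed (12.5% of all genes), Egfr, Erbb3 and Nrg1 as higher in TA (8.21% of all genes) and Hbegf as higher in D (4.31% of all genes). The median log2 difference over all genes was 0.46 for EVP minus D, 0.085 for EVP minus TA and 0.24 for TA minus D, and over the 10 members it was 2.65, 0.64 and 2.16. These comparisons share libraries, so each is given by its own values.

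Egfr (ENSMUSG00000020122), the receptor of most of these ligands, lies on the plus strand of chr11:16752203-16918158 (GRCm38). In the EVP libraries its normalized counts were 2781, 3553, 2819, 4232 and 1916, listed here and below for replicates 1 to 5. TA held 799.7, 2019, 1023, 883 and 1083. In D they were 59.0, 0, 28.1, 0.751 and 13.9. Every D library was far below every TA and EVP library, whereas EVP and TA met, the highest TA library being above the lowest EVP library. D replicate 1, the highest of D, was at 0.760 times the olfactory background expected for the exon length of Egfr, so that library cannot be told from background. D replicates 3 and 5 were at 12.0 and 25.8 times their own low background, on 36 and 23 reads.

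On the log2 scale, Egfr was 8.43 ± 0.83 (SE, n = 5 per population) higher in EVP than in D (limma adjusted p = 8.72e-07), and the mean normalized count was 150.3-fold higher. TA was 7.00 ± 0.83 higher than D (limma adjusted p = 1.92e-05), or 57.0-fold by the means. EVP exceeded TA by 1.43 (95% interval -0.33 to 3.19, limma adjusted p = 0.468), and when only these 2 populations were fitted the adjusted p was 0.0211. Without EVP replicate 1 the difference between EVP and D was 8.46, and it was 9.16 without replicate 1 of every population. The summed fibroblast markers followed the same order over the populations as Egfr, and their part in this result was not tested.

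The RefSeq promoter table (GRCm38.p6) held entries for 6 of the 10 members, Egfr, Erbb2, Erbb4, Areg, Btc and Tgfa. The 250 bases before the start were searched on both strands for a cAMP response element (TGACGTCA), an AP-1 site (TGANTCA), a GC box (GGGCGG) and a TATA box (TATAAA), which do not overlap in their letters. Egfr and Areg are shown because they are the receptor and the ligand with an entry that were higher in EVP and hold a motif; the Egfr window is chr11:16751953-16752202 and the Areg window chr5:91139349-91139598, both on the plus strand, with motif letters in capitals.
Egfr promoter: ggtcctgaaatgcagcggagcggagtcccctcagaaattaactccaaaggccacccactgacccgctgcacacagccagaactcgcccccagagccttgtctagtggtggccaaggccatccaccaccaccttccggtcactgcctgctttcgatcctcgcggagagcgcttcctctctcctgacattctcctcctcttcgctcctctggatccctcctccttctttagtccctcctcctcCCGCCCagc
Areg promoter: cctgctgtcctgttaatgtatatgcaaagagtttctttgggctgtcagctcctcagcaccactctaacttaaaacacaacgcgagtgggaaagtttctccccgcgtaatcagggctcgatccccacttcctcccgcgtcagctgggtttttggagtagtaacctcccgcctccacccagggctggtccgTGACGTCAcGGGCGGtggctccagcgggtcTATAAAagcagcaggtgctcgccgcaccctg
The Egfr window held a GC box at -9 and none of the other motifs. The Areg window held a cAMP response element at -61, a GC box at -52 and a TATA box at -31. Over 32851 promoters, 1.55% held the cAMP response element, 6.75% the AP-1 site, 32.7% the GC box and 12.4% the TATA box. The Btc window, of the other ligand with an entry that was higher in EVP, held none of the 4.

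Erbb2 (ENSMUSG00000062312, chr11:98412470-98437716, plus strand), the ligandless partner, was at a like level in all populations. Its normalized counts were 355, 350.1, 285, 585 and 449 in EVP, 229, 319, 492, 217 and 434 in TA, and 667, 246, 234, 328 and 261 in D. The ranges of the 3 populations overlapped nearly whole, and D replicate 1 was the highest library. EVP differed from D by 0.30 (95% interval -0.38 to 0.98, limma adjusted p = 0.662), and TA from D by 0.0089 (95% interval -0.67 to 0.69, limma adjusted p = 0.992). Differences of more than about 1 log2 unit lie outside these intervals.

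Erbb3 (ENSMUSG00000018166, chr10:128567523-128589652, minus strand), the neuregulin receptor that needs a partner, had its highest mean in TA. It held 137, 131, 61.4, 150.3 and 52.6 normalized counts in EVP and 79.3, 598.6, 142, 132 and 105 in TA. In D it held 45.3, 80.0, 44.6, 14.3 and 23.0. TA replicate 2 stood alone at the top, and TA replicate 1 was just below the highest D library, so the populations touched. The medians of TA and EVP were 132 and 131, and without TA replicate 2 (a choice made after seeing the data) the TA mean fell from 211 to 115, beside 106 in EVP. EVP and TA differed by -0.68 (95% interval -1.87 to 0.51, limma adjusted p = 0.688). TA exceeded D by 2.12 ± 0.56 (SE, n = 5 per population, limma adjusted p = 0.0179), and by 1.64 without TA replicate 2 (limma adjusted p = 0.0439). EVP exceeded D by 1.44 (95% interval 0.25 to 2.63, limma adjusted p = 0.0919). The call between TA and D was lost with background subtraction (limma adjusted p = 0.396), with quantile normalization (0.225), and without D replicate 4 (0.0578) or D replicate 5 (0.0515). TA replicate 2 also held the highest sum of keratinocyte markers, 76883 against 2194 to 14990.1 in the other TA libraries. Schwann cell markers, a lineage known for Erbb3, summed to 1059 to 1635 in TA, 393 to 1461 in EVP (with Foxd3 at 0 in every EVP library) and 187 to 486 in D. All 7 melanoma markers, another lineage known for Erbb3, passed as higher in TA than in D (8.21% of all genes). So did all 8 keratinocyte, all 8 fibroblast, 6 of 7 mast cell, 5 of 8 mural and 3 of 8 macrophage markers. Of the 10 pan-endothelial markers, 7 passed as higher in D (4.31% of all genes). The part of these markers in the result was not tested.

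Erbb4 (ENSMUSG00000062209, chr1:68032186-69108059, minus strand), a receptor of neuregulins and of part of the EGF ligands, was at the level of the background. It held 786, 7.84, 0, 0 and 1.38 normalized counts in EVP, 107, 14.1, 35.7, 0 and 0 in TA, and 85.1, 0.816, 3.91, 0 and 0 in D. Replicate 1 was the highest in each population, and these are the libraries with the most olfactory receptor reads. The ratio to the background expected for its exon length was 1.49 in EVP replicate 1, 0.897 in TA replicate 1 and 1.01 in D replicate 1. No comparison passed, and a level of Erbb4 beyond the background was not detectable at this depth.

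**Figure D1:**
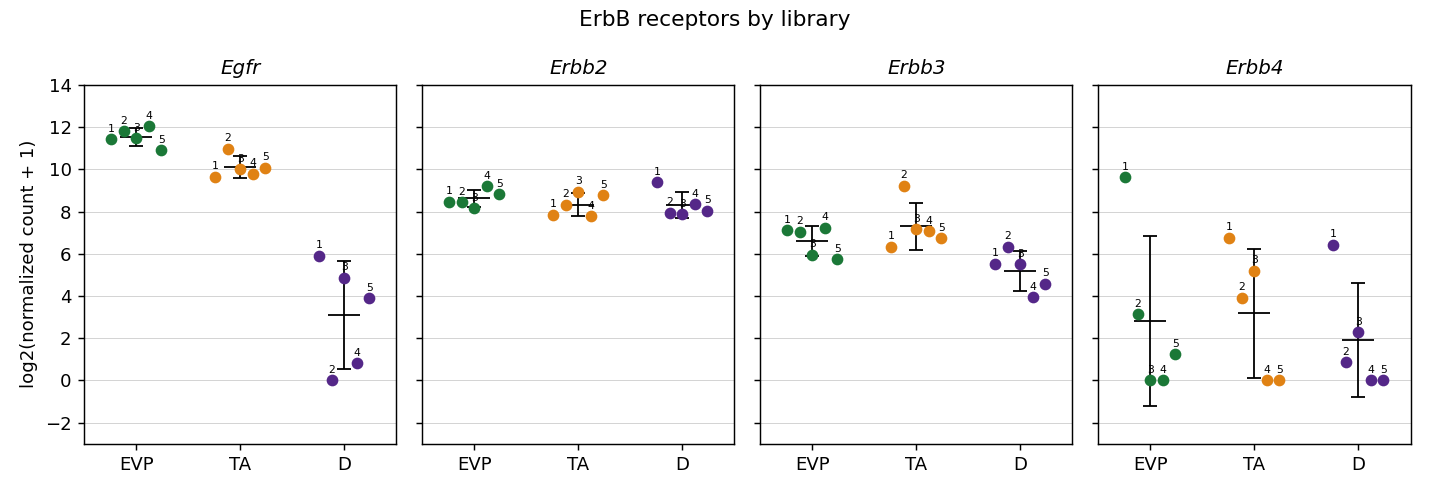
Normalized counts of the 4 receptors on the log2(normalized count + 1) scale (vertical axis) in EVP, TA and D (horizontal axis), with 1 numbered point per library, and mean ± SD as the bar. The 5 D libraries of Egfr lie between 0 and 59.0 normalized counts, below all TA and EVP libraries, while the Erbb2 points overlap in all 3 populations.

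The ligands share the EGF-like domain, a fold held by 6 cysteines that forms the receptor-binding part. To show how the ligands relate, the coding stretch from the first to the last cysteine codon is printed for 5 of them, read from the GRCm38 genome and its gene models, with the cysteine codons in capitals.
Ereg: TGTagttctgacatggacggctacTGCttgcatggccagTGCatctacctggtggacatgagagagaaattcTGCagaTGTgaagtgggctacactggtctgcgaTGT
Areg: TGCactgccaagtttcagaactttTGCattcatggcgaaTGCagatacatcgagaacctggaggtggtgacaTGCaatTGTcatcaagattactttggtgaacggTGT
Btc: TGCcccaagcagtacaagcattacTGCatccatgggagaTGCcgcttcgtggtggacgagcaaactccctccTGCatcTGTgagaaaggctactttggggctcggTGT
Tgfa: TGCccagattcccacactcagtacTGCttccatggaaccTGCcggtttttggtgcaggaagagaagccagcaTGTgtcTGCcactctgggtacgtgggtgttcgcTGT
Nrg1: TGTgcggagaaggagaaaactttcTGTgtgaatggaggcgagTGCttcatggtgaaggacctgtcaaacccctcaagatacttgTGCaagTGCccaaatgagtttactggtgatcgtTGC
Between successive cysteine codons, Ereg, Areg, Btc and Tgfa have 7, 4, 10, 1 and 8 codons, which gives 36 codons in all. Nrg1 has 7, 5, 13, 1 and 8, or 40 codons. In each of the 5 genes an intron splits the stretch over 2 exons. The stretches lie at chr5:91088496-91089111 (Ereg), chr5:91143614-91144364 (Areg), chr5:91362421-91366197 (Btc, minus strand), chr6:86263200-86269960 (Tgfa) and chr8:31837698-31849398 (Nrg1, minus strand). The printed stretch is in 8 of 13 coding transcripts of Nrg1 and in 1 of 2 of Btc and of Tgfa, so the counts of these 3 genes sum isoforms that the table does not separate.

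Ereg, Areg and Btc, together with Epgn, sit in a row on chromosome 5 over 375.5 kb. Ereg and Areg are next to each other, 46.0 kb apart, and Btc lies 209 kb further on. All 3 members of this cluster were higher in EVP than in D. Epgn had means of 5.53 normalized counts in EVP, 66.6 in TA and 12.4 in D. It passed in no comparison (limma adjusted p = 0.867 between EVP and D). The means of Epgn and Btc were highest in TA, and those of Ereg and Areg in EVP.

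Ereg (ENSMUSG00000029377, chr5:91074622-91093646, plus strand) encodes epiregulin, a ligand of EGFR and ERBB4. Its normalized counts were 534, 61.4, 218, 44.0 and 238 in EVP. TA held 164, 0, 0, 21.9 and 147. D held 2.75, 0.816, 0.782, 0 and 0, which is 4 reads in all (95% Poisson interval 1.09 to 10.2, counting error only). All 5 EVP libraries were above all D libraries. TA replicates 1 and 5 were within the EVP range, replicate 4 was below it, and 2 TA libraries had no read. EVP exceeded D by 6.52 ± 1.32 (SE, n = 5 per population, limma adjusted p = 0.00148), and by 6.06 without EVP replicate 1 (limma adjusted p = 0.00607). TA exceeded D by 3.10 (95% interval 0.31 to 5.89, limma adjusted p = 0.156). On whole reads this difference was 6.42 in DESeq2 (adjusted p = 0.000269) and 6.27 in edgeR (adjusted p = 0.0227), and without TA replicate 2, a library at 0, it was 4.05 in limma (adjusted p = 0.0457). EVP exceeded TA by 3.42 (95% interval 0.63 to 6.21, limma adjusted p = 0.195).

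Areg (ENSMUSG00000029378, chr5:91139599-91148432, plus strand) encodes amphiregulin, an EGFR ligand with affinity for heparin. EVP held 73.7, 71.9, 24.5, 25.6 and 313 normalized counts. In TA the values were 6.89, 73.0, 4.46, 25.9 and 81.0, and in D they were 23.3, 8.98, 0, 0 and 0. The lowest EVP library was only just above the highest D library, and EVP replicate 5 was above all others. EVP exceeded D by 4.44 ± 1.09 (SE, n = 5 per population, limma adjusted p = 0.00658). Without EVP replicate 1 the difference was 4.39 (limma adjusted p = 0.0164). The adjusted p was 0.0905 in edgeR, 0.0914 after quantile normalization and 0.0804 with the background subtracted. D replicate 1 was at 2.80 times its background, and EVP replicate 1 at 1.42 times, on 21 reads. TA replicates 1 and 3 were at 0.588 and 0.981 times, and EVP replicates 2 to 5 at 41.6 times or more.

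Btc (ENSMUSG00000082361, chr5:91357261-91402994, minus strand) encodes betacellulin, a ligand of EGFR and ERBB4. It was low throughout, with 42.1, 53.6, 51.5, 21.6 and 42.9 normalized counts in EVP. TA held 13.8, 258, 0, 3.13 and 23.7, and D held 13.7, 1.63, 3.91, 0 and 0. EVP was even among its libraries and TA was not, since TA replicate 2 was above every other library. EVP exceeded D by 3.86 ± 1.18 (SE, n = 5 per population, limma adjusted p = 0.0272). EVP replicate 1 was at 0.219 times its background, and without it the difference was 3.84 (limma adjusted p = 0.0515). The call held in 16 of the 27 alternatives that gave an adjusted p.

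Nrg1 (ENSMUSG00000062991, chr8:31814551-32884029, minus strand) encodes neuregulin, the ligand of ERBB3 and ERBB4. Its normalized counts were 470.5, 39.2, 115, 38.4 and 113 in EVP, 183, 20.2, 46.9, 24.3 and 67.3 in TA, and 50.8, 1.63, 0, 6.76 and 0 in D. The order was the same as for Ereg, but D replicate 1 reached into the range of EVP. Replicate 1 was again the highest in each population, at 1.07 times the background in EVP, 1.83 times in TA and 0.716 times in D. EVP exceeded D by 4.63 ± 1.02 (SE, n = 5 per population, limma adjusted p = 0.00293), by 4.07 without EVP replicate 1 (limma adjusted p = 0.0115), and without replicate 1 of every population by 4.99 (limma adjusted p = 0.000733). TA exceeded D by 3.64 ± 1.02 (limma adjusted p = 0.0246), a call that edgeR (adjusted p = 0.260) and DESeq2 (adjusted p = 0.135) did not make. In limma the call was also lost without D replicate 2, 3 or 5 or TA replicate 1 or 5 (adjusted p 0.0536 to 0.0730), with only the 2 populations (0.0573), with a pseudocount of 8 (0.0739) and after quantile normalization (0.129), so that it held in 18 of 28 alternatives. These libraries do not mark strand, and 4.66% of the exon bases of Nrg1 lie opposite Gm26578 on the other strand, as do 3.42% of those of Ereg opposite Gm19610 and 1.82% of those of Tgfa opposite Gm43917.

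Hbegf (ENSMUSG00000024486) encodes heparin-binding EGF-like growth factor, a ligand of EGFR and ERBB4, and was the member highest in D. Its normalized counts were 660.1, 239, 809, 181 and 759.9 in EVP. TA held 1444, 759, 1250.0, 510.1 and 618. In D they were 1723, 1933, 1927, 2584 and 2064. The D libraries were close together and above all others, and no TA library reached them. EVP was 2.18 ± 0.40 lower than D on the log2 scale (SE, n = 5 per population, limma adjusted p = 0.000538), with a mean 3.86-fold higher in D. Without EVP replicate 1 the difference was -2.32 (limma adjusted p = 0.000826). TA and D did not overlap either (9.25% of all genes), and D was 2.23-fold higher by the means, a log2 difference of -1.26 ± 0.40 (limma adjusted p = 0.0455). That call was lost in 14 of 28 alternatives, among them leaving out any library of D. EVP and TA differed by -0.92 (95% interval -1.76 to -0.084, limma adjusted p = 0.261).

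Tgfa (ENSMUSG00000029999, chr6:86195223-86275719, plus strand) encodes TGF-alpha, a ligand of EGFR. It held 7.02, 73.2, 18.8, 50.4 and 9.68 normalized counts in EVP, 136, 93.2, 6.70, 11.8 and 11.2 in TA, and 68.6, 28.6, 56.3, 99.9 and 90.7 in D. The D libraries lay within the spread of the other populations. EVP differed from D by -1.48 (95% interval -3.25 to 0.29, limma adjusted p = 0.287), and TA from D by -1.23 (limma adjusted p = 0.445).

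Some markers of other cell types moved with some of these ligands. Between EVP and D, all 8 fibroblast and 4 of 8 keratinocyte markers passed as higher in EVP (11.6% of all genes). So did 5 of 7 mast cell and 3 of 8 mural markers, and the members Ereg, Areg, Btc and Nrg1. Kit of the mast cell list, and Abcc9 and Kcnj8 of the mural list, passed as higher in D (7.46% of all genes). The pan-endothelial sum was lowest in EVP and highest in D, like the mean of Hbegf, and 9 of its 10 markers passed as higher in D than in EVP. The part of these markers in the results was not tested.

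**Figure D2:**
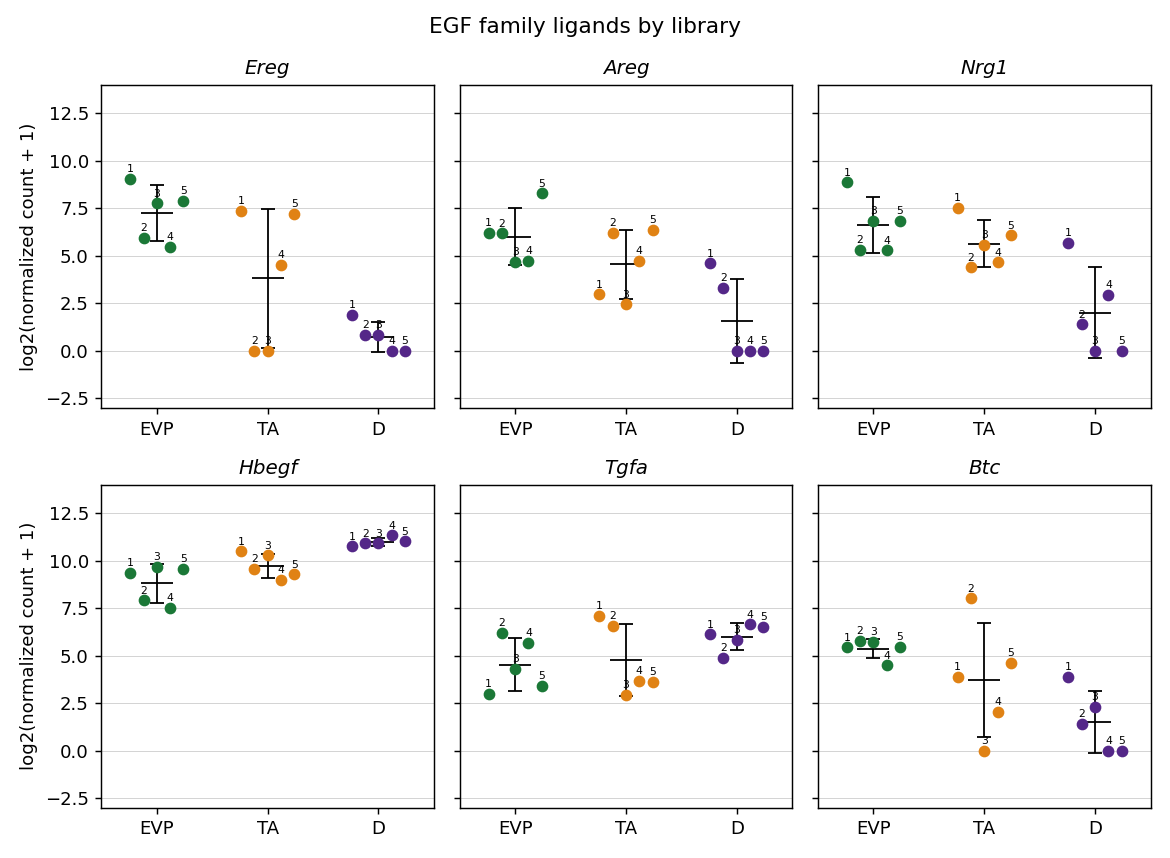
Normalized counts of the 6 ligands on the log2(normalized count + 1) scale (vertical axis) in EVP, TA and D (horizontal axis), with 1 numbered point per library, and mean ± SD as the bar. The 5 D libraries of Hbegf lie between 1723 and 2584 normalized counts, above every TA and EVP library, while those of Ereg lie at or below 2.75.

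The members did not move in a single direction. For 7 of the 10 members the TA mean lay between those of EVP and D, and this was so for 51.2% of all tested genes. The exceptions were Erbb2, and Erbb3 and Btc, whose TA means were the highest and whose highest library was TA replicate 2. No member had its EVP libraries apart from its TA libraries, where 4.29% of all genes did. Within EVP, replicates 1, 3 and 5 were above replicates 2 and 4 for Ereg, Nrg1 and Hbegf, and below them for Egfr and Tgfa, which is a description of 5 libraries with no test.

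**Figure D3:**
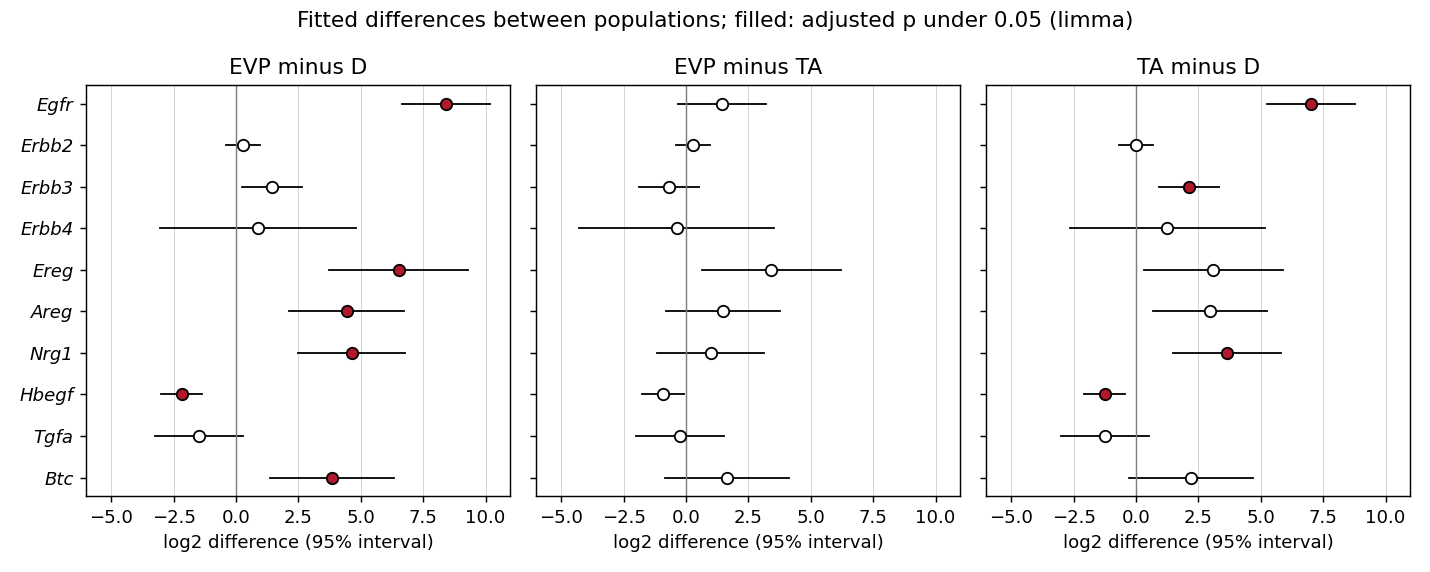
Fitted log2 differences (horizontal axis) of the 10 members with 95% intervals in the 3 comparisons, 1 panel each. The filled points passed the test at an adjusted p of 0.05, and are 6 in EVP minus D, 0 in EVP minus TA and 4 in TA minus D.

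To set ligand source beside receptor, levels were divided by the exon length of each gene. Egfr was at 270.2 ± 77.2 normalized counts per kilobase (SD, n = 5) in EVP, 103 ± 43.5 in TA and 1.80 ± 2.16 in D. Erbb2 was at 77.7 ± 22.4 in EVP, 64.9 ± 23.5 in TA and 66.6 ± 35.03 in D. The ratio of Egfr to Erbb2 per kilobase was 1.96 to 4.67 over the EVP libraries, 0.957 to 2.91 over TA and 0 to 0.0552 over D. Of the summed receptor level per kilobase, Egfr made up 71.1% in EVP, 50.1% in TA and 2.07% in D. Erbb2 made up 21.1%, 33.4% and 86.7% in the same order, so that the receptor transcripts of D were mostly of the receptor without a ligand of its own. The summed receptor level was 378 ± 94.7 in EVP, 205 ± 82.3 in TA and 76.8 ± 39.9 in D.

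Hbegf ran the other way. It was at 109.6 ± 61.5 normalized counts per kilobase (SD, n = 5) in EVP, 189.6 ± 84.6 in TA and 423 ± 67.1 in D, and made up 41.5%, 71.5% and 95.8% of the summed ligand level in EVP, TA and D. The summed ligand level was 276 ± 167 in EVP, 265 ± 89.6 in TA and 441 ± 63.3 in D. Areg was the next ligand in EVP with 27.9% of the sum, ahead of Ereg with 17.5%, Nrg1 with 5.03%, Btc with 4.42% and Tgfa with 3.65%. The spread of these shares was wide, since Areg ranged from 7.60% to 52.1% over the EVP libraries. Without EVP replicate 1 (a choice made after seeing the data), the shares were 30.9% for Areg, 13.5% for Ereg, 4.92% for Btc, 4.49% for Tgfa and 3.32% for Nrg1, so that Nrg1 moved from ahead of Btc and Tgfa to behind them. Without Hbegf, the other 4 EGFR ligands among the members summed to 151 ± 113 per kilobase in EVP, 68.8 ± 53.1 in TA and 17.0 ± 9.46 in D. EVP replicate 1 was at 382 in the sum of all 6 ligands and at 200 in that of these 4. Its background, 42.6 per kilobase for each gene, was not subtracted from either sum. Egf and Epgn, ligands outside the members, are in none of these sums or shares.

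The ratio of Hbegf to Egfr per kilobase of merged exon was 0.1004 to 0.929 over the EVP libraries and 0.880 to 4.23 over TA. In D it was 68.4 or more in the 4 libraries with an Egfr read. By the means, Egfr, Ereg, Areg and Nrg1 were thus highest in the EVP gate, though none of them passed between EVP and TA. The mean of Btc was highest in TA (59.8 normalized counts, beside 42.3 in EVP). Hbegf was highest in the D gate, which had almost no Egfr. These are transcript levels of sorted cells, and neither receptor protein nor ligand binding was measured.

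**Figure D4:**
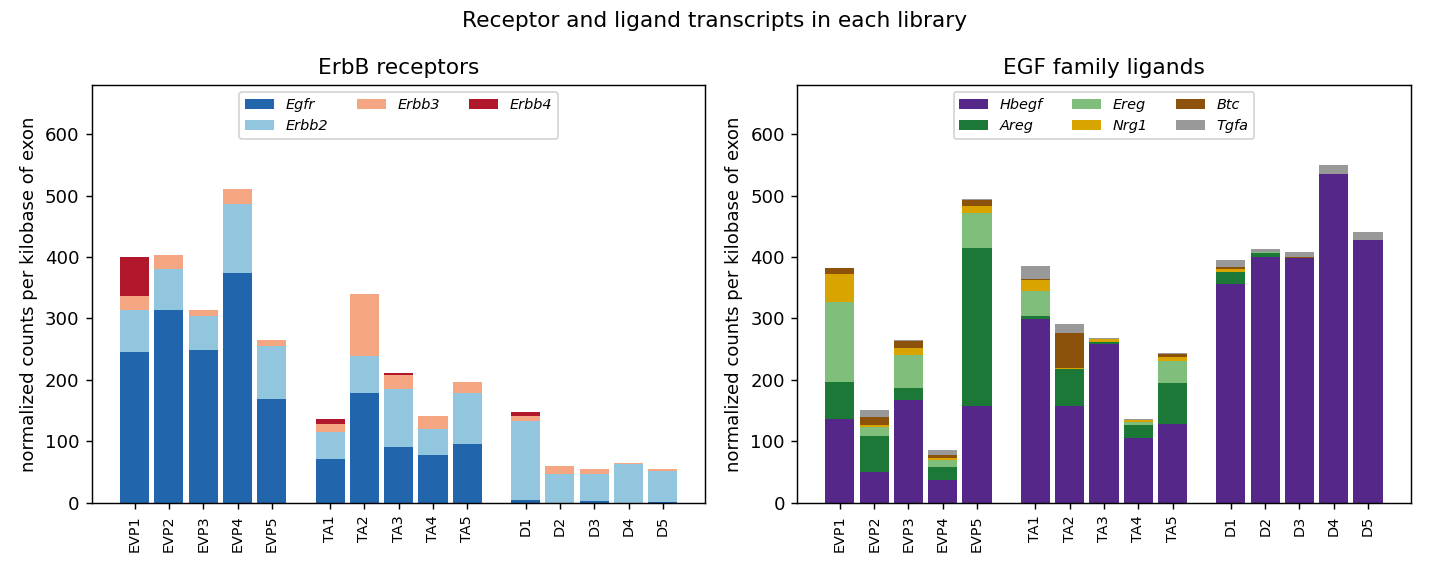
Summed normalized counts per kilobase of exon (vertical axis) of the 4 receptors (left) and the 6 ligands (right), stacked by gene, in each of the 15 libraries (horizontal axis). Egfr is the larger part of every EVP bar and nearly absent from D, and Hbegf makes up 90.3% to 97.6% of every D bar.

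The genes whose pattern over the 15 libraries was most like a member were sought among 11290 genes, by the root mean square (RMS) difference of centred log2 values. For Egfr, whose own values varied by 3.93 log2 units (RMS), the 5 nearest were Fgf7 at 0.69, Srpx at 0.77, Adora2b at 0.82, Vgll3 at 0.85 and Aldh1a3 at 0.99. Fgf7, which encodes an epithelial growth factor made by stromal cells, had means of 2248 normalized counts in EVP, 719.7 in TA and 11.6 in D. For Ereg, which varied by 3.38, those given here were Ptgs2os at 1.49, Usp13 at 1.76, Emx2os at 1.77 and Ikbke at 1.81. Ptgs2os, a transcript opposite the prostaglandin synthase gene Ptgs2, had means of 323, 23.2 and 3.35. For Erbb3, which varied by only 1.22, they were Sectm1a at 0.58, Serpinb8 at 0.59, Cxcl2 at 0.66, Tnfaip8 at 0.69 and Apoe at 0.71. All 3 sets are descriptions with no test.

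The rest of the pathway was read from lists of 59 genes, of which 58 were tested. Between EVP and D, 28 of them passed (19.0% of all genes), 10 as higher in EVP (11.6% of all genes) and 18 as higher in D (7.46% of all genes), with a median log2 difference of -0.13 beside 0.46 over all genes. The count was 13 with the background subtracted and 18 without D replicate 4. The part of the marker gradients given above was not tested here either. Among 4 tested ligands outside the members, Egf itself passed and was higher in EVP, while Epgn, Nrg3 and Nrg4 did not pass. The mean of Egf was 122 normalized counts in EVP against 29.4 in D (log2 difference 1.94 ± 0.63, limma adjusted p = 0.0395). Its libraries held 228, 196, 83.4, 53.5 and 50.5 in EVP and 45.3, 17.1, 50.8, 21.8 and 12.1 in D, so the populations touched. EVP replicate 1, the library with the most background, was the highest. Nrg2 was below the minimum mean.

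Of 10 genes of ligand release, 3 were higher in EVP (11.6% of all genes) and 2 in D (7.46% of all genes). The sheddase Adam10, which is known to cut betacellulin and EGF, was higher in D, with a mean of 7498 against 2268 in EVP (log2 difference -1.73 ± 0.24, limma adjusted p = 2.75e-05). Adam12 was also higher in D (-0.72, limma adjusted p = 0.0474). Adam9 (1.06 ± 0.17, limma adjusted p = 0.000177), the protease gene Bace1 (0.95) and the inactive rhomboid gene Rhbdf1 (0.88) were higher in EVP. Adam17, the main sheddase of amphiregulin, HB-EGF and TGF-alpha, had means of 1690 in EVP and 2253 in D and did not pass (log2 difference -0.43, limma adjusted p = 0.171).

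Among 16 adaptors and members of the RAS-ERK cascade, 5 were higher in D (7.46% of all genes) and none in EVP (11.6% of all genes). Mapk3, which encodes ERK1, had a mean of 550.4 in EVP and 1585 in D (log2 difference -1.53 ± 0.20, limma adjusted p = 1.70e-05). The docking gene Gab1 (-1.23), the exchange factor gene Sos1 (-1.52) and the RAS genes Nras (-0.97) and Hras (-1.05) were the others. The remaining 11 did not pass, among them Grb2 and Shc1. The median log2 difference of this list was -0.17.

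Of 20 feedback and receptor turnover genes, 5 were higher in EVP (11.6% of all genes) and 7 in D (7.46% of all genes). Errfi1 encodes an inhibitor that binds the EGFR kinase, and its normalized counts were 11000.2, 9495, 16815, 18484 and 9141 in EVP. They were 3314, 4589.6, 4454, 4407 and 8322 in TA, and 1225, 1377, 1317, 898 and 1092 in D. The D libraries were below all others, and the EVP libraries above all TA libraries. The log2 difference of EVP minus D was 3.41 ± 0.24 (limma adjusted p = 1.88e-08), and EVP also exceeded TA by 1.38 (limma adjusted p = 0.00497). Lrig1 (3.69) and Lrig3 (3.13), whose proteins restrain or modulate growth factor receptors, and the phosphatase gene Ptprj (3.15) were higher in EVP as well. On the other side stood the RAS-ERK antagonist Spry4, whose means were 239 in EVP, 1429 in TA and 4192 in D (EVP minus D -4.57 ± 0.58, limma adjusted p = 1.26e-05), and Spred2 (-1.43). Spry2, a relative of Spry4, passed as higher in EVP (0.80), and Rnf41, whose product takes part in ErbB receptor turnover, as higher in D (-0.91). The list's median was -0.25.

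Of 10 genes known to respond to ERK, 2 were higher in EVP (11.6% of all genes) and 5 in D (7.46% of all genes). Epha2 had 21.1, 24.8, 27.0, 77.5 and 30.4 normalized counts in EVP, 546, 98.5, 310.3, 342 and 104 in TA, and 917, 597, 684, 1398 and 1131 in D. The 3 populations did not overlap, and EVP minus D was -4.77 ± 0.48 (limma adjusted p = 9.36e-07). Ccnd1, which encodes cyclin D1, had means of 791 in EVP and 7941 in D (-3.34 ± 0.32, limma adjusted p = 5.82e-07), and the phosphatase gene Dusp6 had means of 1492 and 5281 (-1.89 ± 0.24, limma adjusted p = 1.35e-05). Spry4 counts in this list too. Phlda1 (2.25 ± 0.24, limma adjusted p = 2.40e-06) and Spry2 (0.80) were higher in EVP. These genes respond to many receptors besides the ErbB family, and no ERK activity was measured.

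In the other comparisons, 7 of the 58 pathway genes passed between EVP and TA (3.50% of all genes) and 13 between TA and D (12.5% of all genes). Between EVP and TA the count was 1 without replicate 1 of every population, 2 with the background subtracted, 4 without EVP replicate 3 or 4, with only the 2 populations or with no minimum mean, and 11 in DESeq2. Between TA and D it was 6 with the background subtracted and 23 with array weights. Between EVP and TA, Errfi1, Cblb and Rhbdf1 were higher in EVP, and Spry4, Epha2, Ccnd1 and Dusp6 were higher in TA. Between TA and D, Errfi1 (2.03) and Phlda1 (1.82) were higher in TA and the other 11 were higher in D, Adam10 among them (-1.23).

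**Figure D5:**
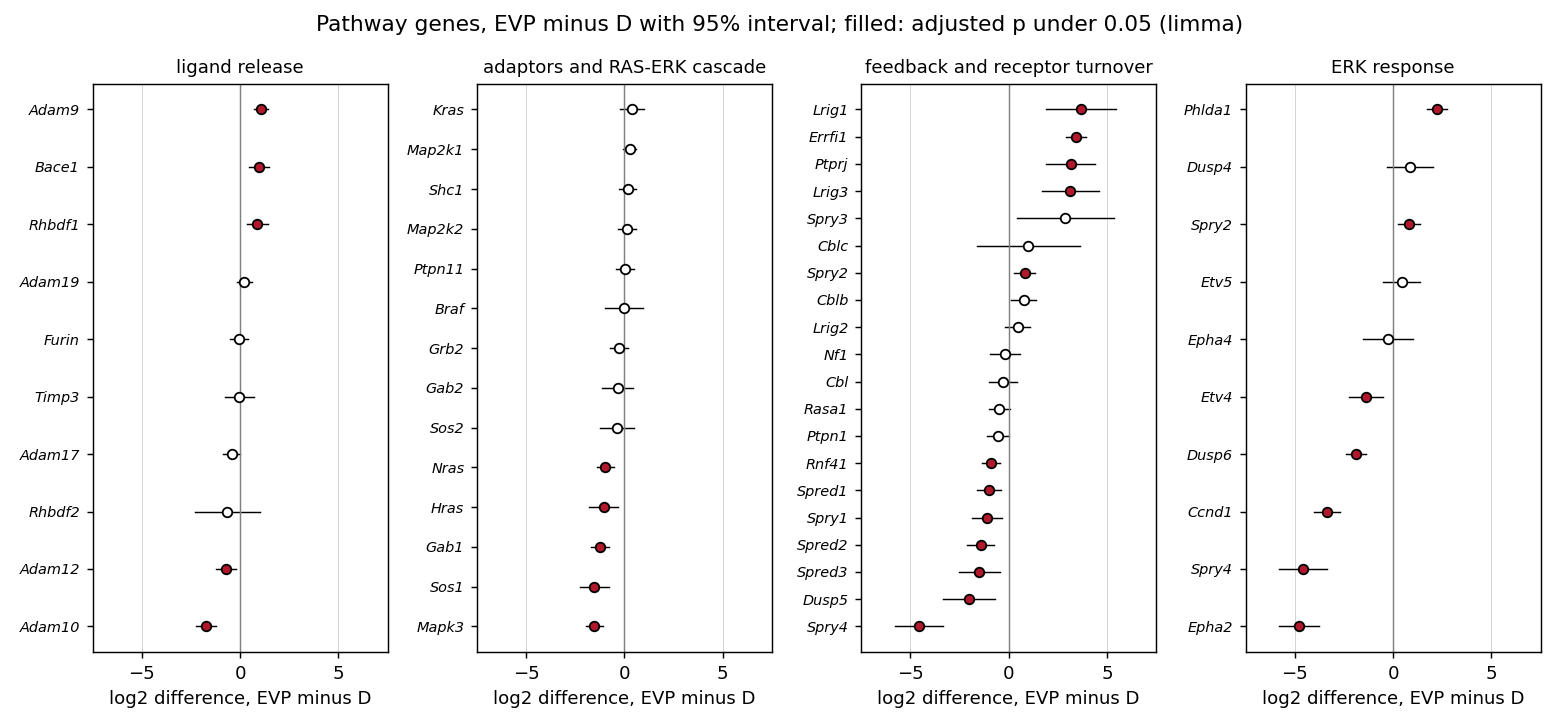
Fitted log2 differences, EVP minus D (horizontal axis), with 95% intervals for genes of 4 pathway lists, 1 row per gene shown; filled points passed the test at an adjusted p of 0.05. Errfi1 and Lrig1 lie at 3.41 and 3.69, and Spry4 and Epha2 at -4.57 and -4.77.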

How the data were processed

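RNA sequencing of 15 sorted cell samples (5 each of EVP, TA and D) was analysed. The authors made libraries with a modified Smart-Seq2 protocol, which covers whole transcripts and does not mark strand, aligned paired reads with STAR 2.5.3a to GRCm38 (Ensembl annotation), counted them per gene with HTSeq-count and normalized with DESeq2 1.10.1. The strand setting of the counting was not given in the sources used here. Each deposited signal value is a gene's count over the size factor of its library, and whole reads were recovered from them (100% of values within 0.001 of a whole number). The authors' own differential tables (fold changes and p-values) were not used.

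The main test was limma 3.58.1 in R 4.3.3, two-sided, on log2(normalized count + 1) of all 25549 genes with a mean of at least 5, with 1 coefficient per population and Benjamini-Hochberg adjustment; a gene passed at an adjusted p under 0.05. The design had assumed such values, and edgeR 4.0.16 and DESeq2 1.42.0 on whole reads were among 28 alternatives. Differences are on the log2(value + 1) scale, which understates changes of low genes. The limma fit, with and without a block, and the edgeR and DESeq2 fits were tested on simulated data for EVP against D. The other alternatives were not. The background of a library was the reads per kilobase on 1406 olfactory receptor genes. Levels per kilobase used the merged exon length, and 99.8% of gene identifiers matched the annotation, 96.4% of these with the same coordinates. Hbegf was the only member whose coordinates differed. Its merged exon length was 4834 bases and its longest transcript 2890, beside 11326 and 10208 for Egfr. The ratio of Hbegf to Egfr would be higher with the longest transcript, and was not recomputed. With that length all 30 shares moved by less than their SD.

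The members and all gene lists were chosen with earlier results of these data known. Named were all members, up to 6 pathway genes a list (the smallest adjusted p between EVP and D) with genes contrasted to them, and the 5 genes most like Egfr, Ereg and Erbb3 among genes with a mean of at least 100 and a unique symbol. A few genes that this rule or the lists hold are counted but not reported here by name. Depth was 5394356 to 26513073 reads on genes, 3 reads being 1.81 to 10.5 normalized counts. Intervals of read counts cover counting error only. Same-numbered libraries were not treated as pairs.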

Additional observations from a re-analysis of the deposited data

Results flagged for a closer look

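Each member was examined in each population for a library far from the other 4, in 30 groups of 5 libraries on the log2 scale, with Dixon's 95% critical value of 0.71. Chance alone marks about 1 in 20 groups, and 2 of the 30 were marked. Erbb3 in TA replicate 2 was at 598.6 normalized counts, and the next TA library was at 142 (ratio of the gap to the range 0.714). Btc in EVP replicate 4 was at 21.6 normalized counts, and the next EVP library was at 42.1 (ratio 0.734). The Btc value is the lowest of its population and still above every D library.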

How the results depend on the processing

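The 30 member comparisons were repeated under 28 alternatives, and 751 of the results kept their direction and their side of the threshold, 43 lost a call and 14 gained one. Egfr and Ereg between EVP and D, Hbegf between EVP and D, and Egfr between TA and D passed in all 28. DESeq2 gave no adjusted p for 6 results (Erbb4 and Btc). The number of members that passed between EVP and D was 6, and 3 with edgeR on whole reads. Between EVP and TA it was 0, and 1 (Egfr) when only the 2 populations were fitted. Between TA and D it was 4, and 8 with array weights, 2 with the background subtracted and 1 after quantile normalization. Leaving out 1 library gave 5 to 7 between EVP and D, 0 between EVP and TA and 1 to 5 between TA and D, with 2 each without D replicate 2, 3 or 4 or TA replicate 5, and 1 without D replicate 5. With whole reads the call on Nrg1 between EVP and D was lost in edgeR alone (adjusted p = 0.0796).

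The direction turned in 26 results, none of which passed the test in either fit. For Erbb2, TA minus D became -0.033 with DESeq2, -0.055 with edgeR, -0.064 with the background subtracted and -0.19 after quantile normalization, and leaving out 1 library gave -0.15 to 0.27, below 0 without D replicate 2, 3 or 5 or TA replicate 3 or 5. For Erbb4, EVP minus TA became 1.68 with the background subtracted, 2.26 with edgeR and 0.018 with a pseudocount of 8, and leaving out 1 library gave -2.07 to 0.53, above 0 without EVP replicate 3, 4 or 5 or TA replicate 1 or 3. EVP minus D of Erbb4 was -0.82 to 2.01 with 1 library left out, the lowest without EVP replicate 1, and TA minus D was -0.35 with the background subtracted. For Tgfa, EVP minus TA became 0.60 with array weights and 0.71 without replicate 1 of every population, and leaving out 1 library gave -0.71 to 0.33, above 0 without EVP replicate 1 or 5 or TA replicate 1 or 2. For Btc, EVP minus TA became -0.52 with edgeR. The cause was not tested.

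With the replicate number as a block, 7 members passed between EVP and D, 0 between EVP and TA and 4 between TA and D; Erbb3 was the added call (adjusted p = 0.0445). Correlations of deviations between same-numbered libraries ran from -0.136 to 0.689 (above 0.1 in 11 of 15 pairs), and a library matched its own number best in 12 of 15 and 11 of 15 pairs, seen from either side. At 3 reads, a gene was at 1.81 to 10.5 normalized counts over all libraries, and at 1.81 to 4.12 over those of D. A member at 0 in a D library may lie anywhere below the value of that library.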
